A study of Komagataella phaffii with 12 samples.

Results

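The regions described here are 236 loci in the interior of the 4 Komagataella phaffii chromosomes that were detected as open chromatin in some but not all wild-type libraries and in at least 1 library of the strain with a disrupted FLO8 gene. Open chromatin was detected by FAIRE-Seq, in which crosslinked, sheared chromatin is extracted with phenol and the DNA not bound by nucleosomes stays in the water phase. Merging all nuclear peaks of the 10 lists with an overlap of 1 bp or more gave 665 loci. A locus was kept if 1 to 5 of the 6 wild-type (WT) lists and at least 1 of the 4 Δflo8 lists held a peak in it, and if its midpoint lay at least 100 kb from the chromosome end. The 236 variable loci made up 35.5% of all nuclear loci and 37.8% of the 624 interior loci. Presence in the lists chose these loci, so their presence by strain is given as a description without a test.

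All samples came from glucose-limited chemostats of strain CBS7435 or of its Δflo8 derivative, in which only FLO8 was disrupted as far as the labels state. Steady states were sampled after 5 residence times, first with a growth rate of 0.1 per hour (fast), next with 0.05 per hour (slow) and last with 0.1 per hour again (switchback). The WT had 2 libraries at each stage, and Δflo8 had 2 at the fast stage and 1 at each later stage. Each chemostat passed through the stages one after the other, and the labels do not say which libraries share a culture, so p-values measure the spread between these libraries only.

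A promoter in budding yeasts typically holds a stretch depleted of nucleosomes next to the start of transcription, and such stretches are the main source of FAIRE signal. Flo8 is known in Saccharomyces cerevisiae as an activator of flocculin genes, which encode cell surface proteins used for adhesion, flocculation and filamentous growth. Regions that are open at one growth rate and not at another are therefore the ones a growth-rate experiment sets out to find. Which genes lie next to the 236 loci was not analysed here, because no annotation of the CBS7435 genome was used.

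The lists differed in length, from 149 to 509 nuclear peaks. The WT had 219 and 199 nuclear peaks in the fast, 203 and 382 in the slow, and 356 and 346 in the switchback libraries. Δflo8 had 463 and 356 in the fast libraries, 509 in the slow one and 149 in the switchback one. WT slow replicate 2 and the Δflo8 switchback list thus stood apart in length from the lists nearest to them in the design. Peaks of the WT lists were also several times wider than those of the Δflo8 lists, and the strain coincided with the format of the list, so that strain and list format cannot be told apart. Since read counts are not among the values of the lists, library depth is unknown.

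The number of variable loci in a list followed its length within each strain. Of the 236 loci, 59 and 46 were found in the WT fast lists, 50 in WT slow replicate 1, 170 in WT slow replicate 2, and 170 and 147 in the WT switchback lists. In Δflo8, the fast lists held 184 and 158, the slow list 220 and the switchback list 64. The WT lists fell into a low set of 3 (both fast lists and slow replicate 1) and a high set of 3 (slow replicate 2 and both switchback lists), and the slow stage was split between them. Peaks at variable loci made up between 23.1% and 26.9% of the 3 shorter WT lists and between 42.8% and 48.0% of the 3 longer ones. In the Δflo8 lists this share lay between 40.6% and 44.9%, including 43.0% in the short switchback list. When only the first 199 peaks of each WT list were read, 199 being the length of the shortest, the fast lists held 44 and 46 of the loci, the slow lists 48 and 53 and the switchback lists 66 and 59. The WT stages were then much closer, although both switchback lists still held more than the other 4. In the first 149 peaks, the length of the Δflo8 switchback list, the Δflo8 lists held 74 and 68 (fast), 72 (slow) and 64 (switchback) of the loci. The WT lists held 21 and 25, 34 and 29, and 35 and 32 in as many peaks.

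**Figure D1:**
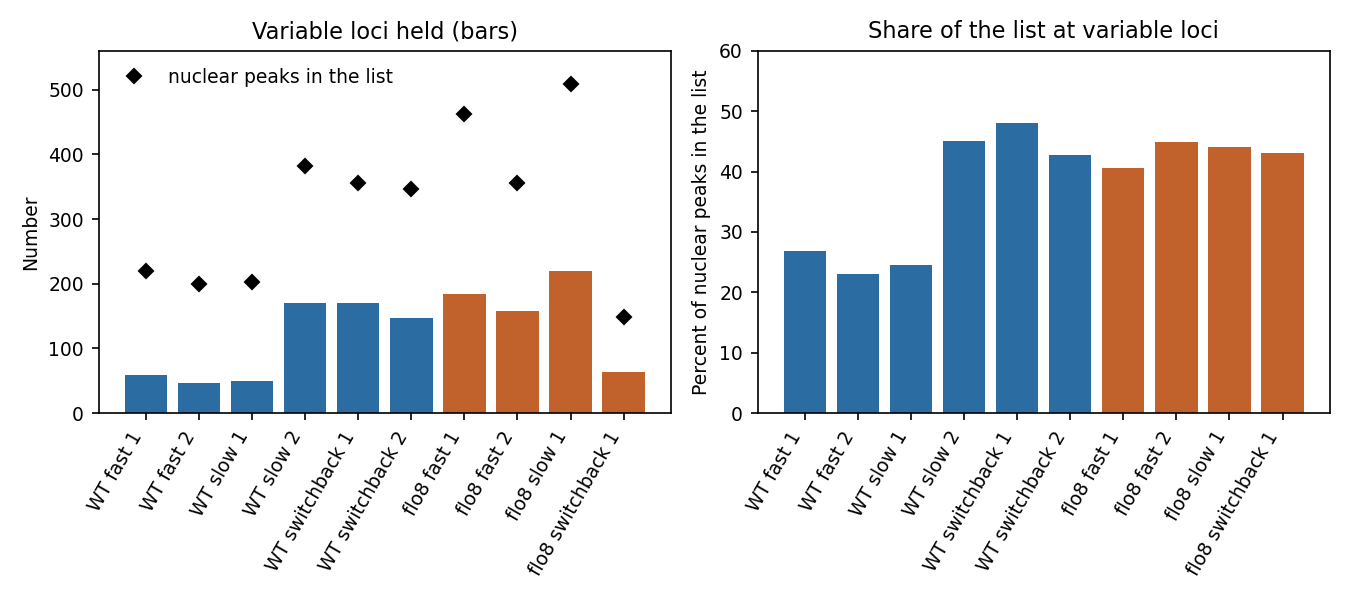
Variable loci held by each of the 10 FAIRE lists. The left panel gives the number of the 236 loci held (bars) and the number of nuclear peaks in the list (diamonds), and the right panel the percent of the list's nuclear peaks that lie at these loci, with WT in blue and Δflo8 in orange. The 3 shorter WT lists held 46 to 59 loci and the 3 longer ones 147 to 170.

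Neither WT fast list held 157 of the 236 loci (66.5%), a share close to the 62.6% of all nuclear loci. The most frequent WT pattern, with 40 loci, was a peak in 1 slow list and both switchback lists. It was followed by 37 loci held by a single switchback list, 28 held by 1 slow and 1 switchback list, and 26 held by a single slow list. These 4 patterns contain no peak of the first fast stage. Only 49 of the 157 loci (31.2%) ranked within the first 199 peaks of any later WT list, and 108 (68.8%) lay beyond that rank in every later WT list that held them. Both Δflo8 fast lists held 102 of the 157, 1 of them held 23 and neither held 32. Over all variable loci both held 153 of 236, nearly the same share.

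Replicates of a WT stage often disagreed at these loci, as the choice of loci favours. At the switchback stage 116 loci were held by both lists, 54 by replicate 1 only and 31 by replicate 2 only, so both held 57.7% of the loci found at that stage. The fast lists shared 26 loci, or 32.9% of those found by either. The slow lists shared 43, or 24.3%, and the disagreement ran one way: 127 loci were held by replicate 2 only and 7 by replicate 1 only. Over all nuclear loci, 28.9% were in WT slow replicate 2 and not in replicate 1.

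At the variable loci, the Δflo8 switchback list was nearly contained in the other Δflo8 lists. All 64 variable loci of the switchback list were also held by fast replicate 1, and 63 of the 64 by the slow list. Of all 236 loci, fast replicate 1 held 184 and the slow list 220. Both fast lists and the slow list, without the switchback list, held 86 loci (36.4%). A further 62 (26.3%) were held by all 4 lists, against 21.1% of all nuclear loci. The latter include loci that no Δflo8 list held, 107 of them interior loci in 1 to 5 WT lists, so a higher share is partly built in. The slow list alone held 47 (19.9%). For these 47 and for the 86 above, the share over all nuclear loci was not computed. Both Δflo8 fast lists but not the switchback list, against no WT fast list and both WT switchback lists, held 23 loci (9.75%, against 3.46% of all nuclear loci). A locus with this pattern meets the list counts of the choice, so the higher share was built in. These 23 were all such loci among the 665. Of the 47 loci held in Δflo8 by the slow list alone, 35 were in WT slow replicate 2, 20 in WT slow replicate 1, 35 in at least 1 WT switchback list and 15 in at least 1 WT fast list. They were low peaks, with a median rank of 404 and an authors' fold enrichment over the control between 2.18 and 3.43 (median 2.64).

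**Figure D2:**
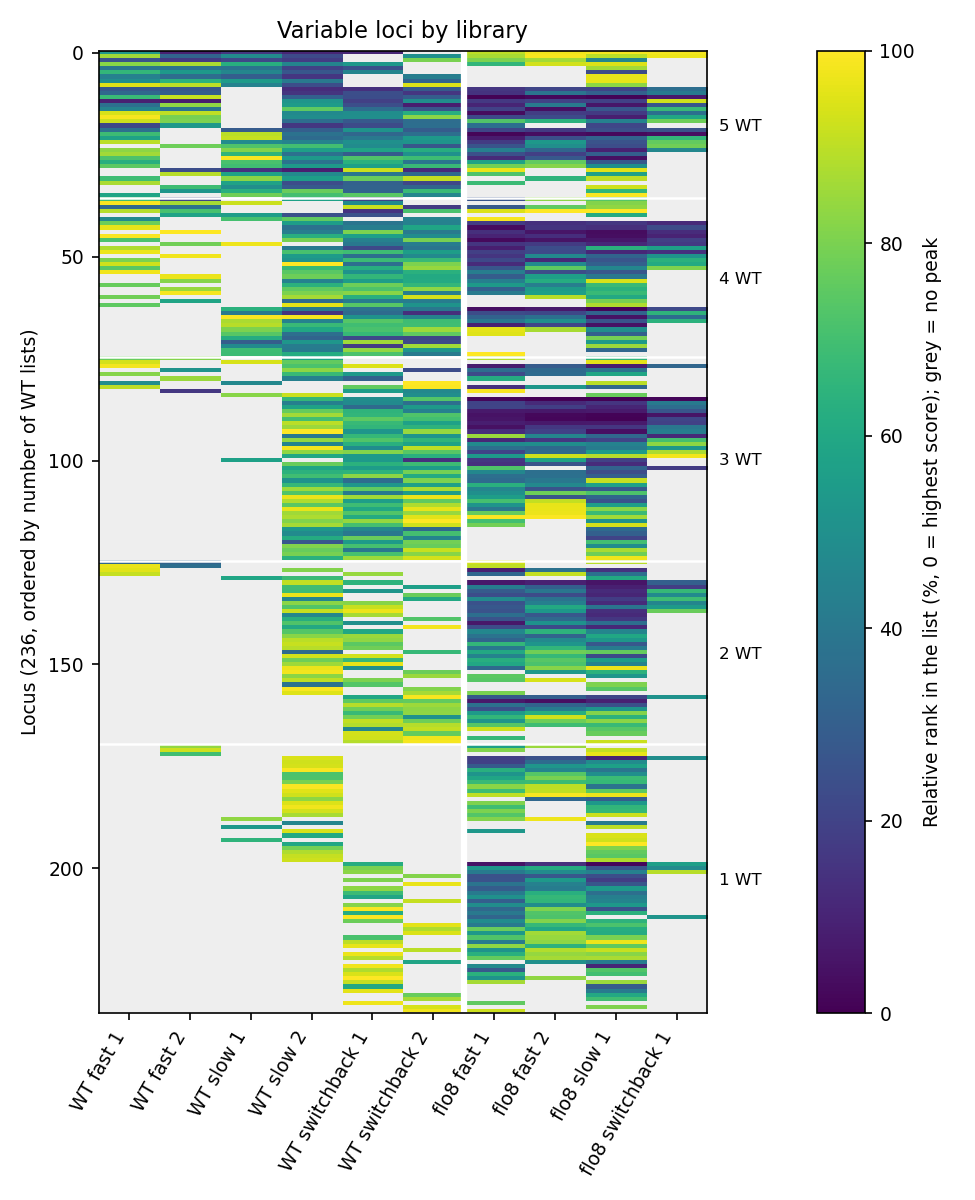
Presence and rank of the 236 variable loci (rows, ordered by the number of WT lists) in the 10 lists (columns). Colour gives the rank of the peak as a percent of the list length, with dark for the highest score, and grey marks no peak. The left 3 WT columns are mostly empty, and dark cells are concentrated in the Δflo8 columns.

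Loci found in more WT lists also ranked higher there. The 66 loci held by 1 WT list had a median relative rank, the rank by score as a percent of the list length, of 88.6% in it. The median was 81.7% for the 45 loci in 2 lists, 69.8% for the 50 in 3 lists, 64.0% for the 39 in 4 lists and 48.0% for the 36 in 5 lists. The share held by all 4 Δflo8 lists rose along the same order, from 6.06% over 20.0%, 32.0% and 41.0% to 47.2%. The fold enrichment in the Δflo8 lists had a median of 2.91 for loci in 1 WT list and lay between 3.09 and 3.28 for the other groups, so it separated the loci held once from the rest more than it separated the rest among themselves.

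The same loci took different places in the lists of the strains. In the WT lists their median relative rank lay between 63.5% and 76.7%, in the lower part of every list, and at most 2 of them were among the first 10% of peaks of any WT list. In the Δflo8 lists the median lay between 40.9% and 48.6%, and 22, 13, 24 and 4 of the loci were among the first 10% of the fast replicate 1, fast replicate 2, slow and switchback lists. In the same order, that first 10% was 46, 35, 50 and 14 peaks. It also held 20, 20, 23 and 8 of the interior loci in all 6 WT lists. Peaks at variable loci made up 40.6%, 44.9%, 44.0% and 43.0% of these Δflo8 lists as a whole. The mean relative rank was better in Δflo8 than in the WT at 171 of the 236 loci (72.5%). Low WT ranks are partly built into the choice, since loci held by every WT list were left out and the corresponding filter on Δflo8 was absent. Over the 236 loci the mean ranks of the strains were nearly unrelated (Pearson r = 0.087, Spearman rho = 0.12), where the points share the libraries of their strain. Score and peak width moved together in the WT lists, with a Spearman rho between 0.76 and 0.90 at these loci, and less so in the Δflo8 lists, with 0.33 to 0.60. The part of width in the different ranks was not tested.

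**Figure D3:**
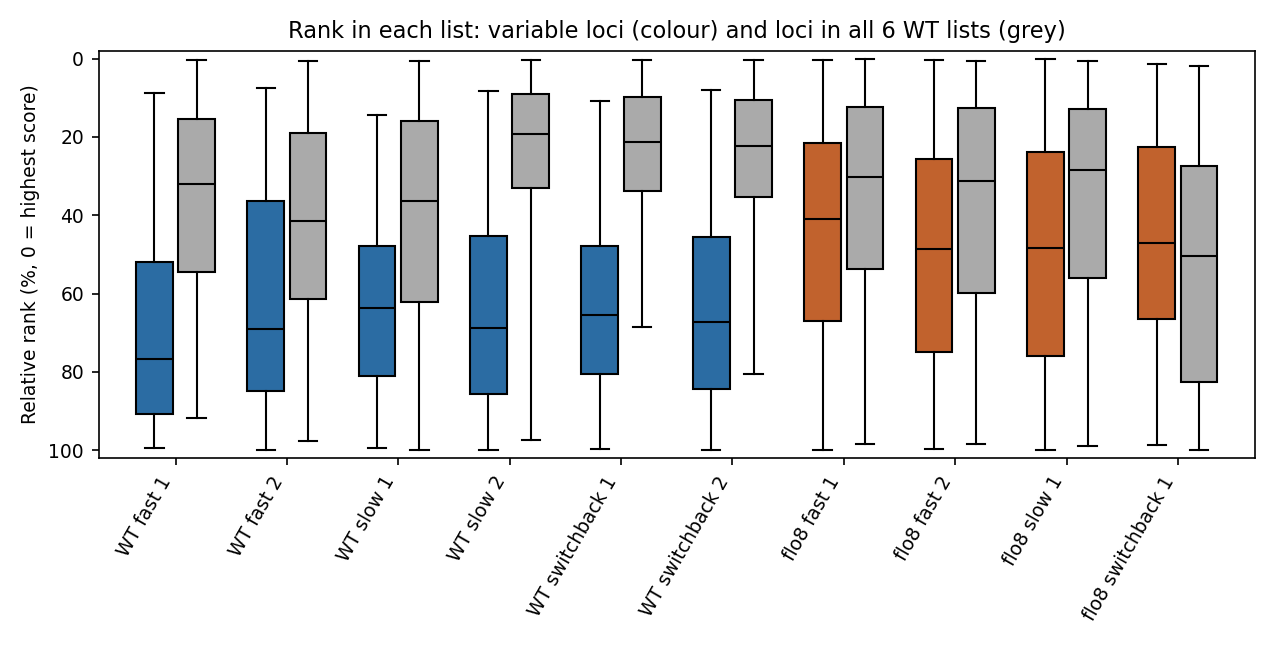
Relative rank of the variable loci (coloured boxes, blue for WT and orange for Δflo8) and of the 116 interior loci in all 6 WT lists (grey boxes) in each list. Boxes span the quartiles with the median, whiskers the whole range, and 0% at the top is the highest score. The WT medians of the variable loci lie between 63.5% and 76.7% and the Δflo8 medians between 40.9% and 48.6%.

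The leading example lay at chr1:1364694-1365662, chosen after its values were seen for having the best Δflo8 rank. It was the first nuclear peak of Δflo8 fast replicate 2 and of the Δflo8 slow list, the second of the switchback list and the eighth of fast replicate 1, with a fold enrichment of 4.52, 4.83, 4.16 and 4.25. In the WT it was missing from both fast lists and from slow replicate 1, and ranked 253 of 382 in slow replicate 2 and 174 of 356 and 253 of 346 in the switchback lists. The first-ranked nuclear peak of 2 Δflo8 lists was thus called in only 3 of the 6 WT lists, each time in the middle or lower part.

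Chosen in the same way, chr3:1755110-1756051 ranked 26, 6, 2 and 31 in the Δflo8 lists (fast replicates 1 and 2, slow, switchback) with a fold of 4.29, 4.14, 4.93 and 3.56. Its WT ranks were 266 in slow replicate 2 and 268 and 242 in the switchback lists. The region at chr1:1191910-1192848 ranked 22, 7, 5 and 8 in Δflo8, and 329 in WT slow replicate 2 and 234 and 250 at the WT switchback. Both had the WT pattern of the leading example.

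The converse case was chr2:1739075-1741104, the variable locus with the best WT rank, also chosen after its values were seen. It ranked 19 and 15 in the WT fast lists, 199 in slow replicate 2 and 68 and 170 in the switchback lists, and was missing from slow replicate 1. In Δflo8 it ranked 77, 70, 99 and 138, and its fold enrichment was 3.67, 3.23, 3.48 and 2.51. At 2030 bp it was the widest of the 236 and the only one in which a single list held 3 peaks.

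**Figure D4:**
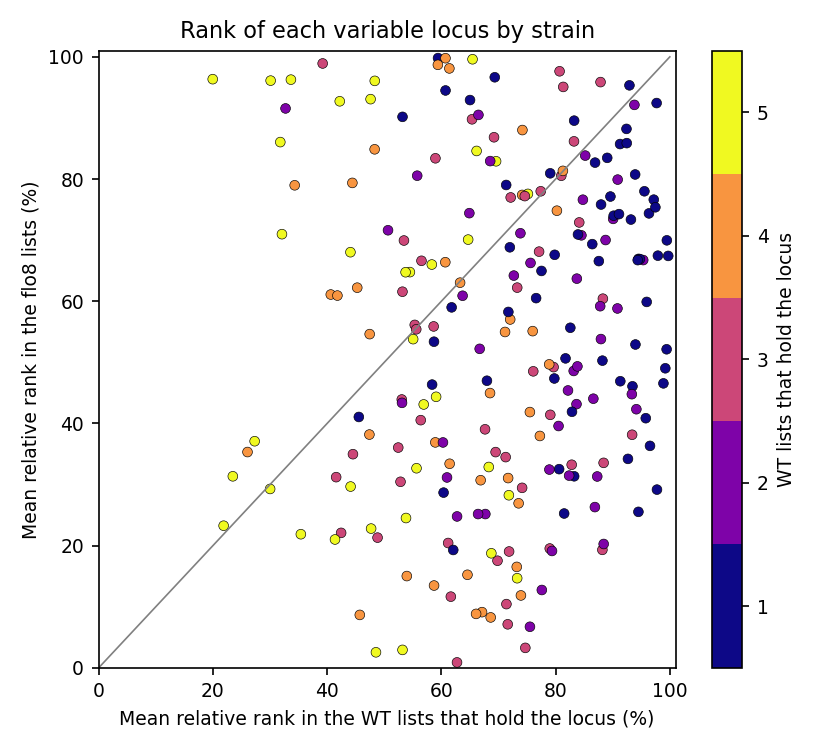
Mean relative rank of each of the 236 loci in the WT lists that hold it (horizontal axis, %) and in the Δflo8 lists that hold it (vertical axis, %), coloured by the number of WT lists. Points below the grey line of equal rank, 171 of the 236, rank better in Δflo8.

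Whether presence depended on the growth stage was tested at each nuclear locus with the stage labels permuted within each strain, since the choice of loci used the number of lists of each strain and not their stages. Comparing the slow and switchback lists with the first fast lists, 0 of the 236 loci passed an adjusted p of 0.05 (exact two-sided permutation test, 90 arrangements, Benjamini-Hochberg over 665 loci, 0% of all loci), and the smallest adjusted p was 1. The smallest p this design allows is 0.0111 for a locus, and 0.0167 in the comparison of the slow stage, so no single locus could pass the adjustment and the count of 0 says little about the stages. At an unadjusted p under 0.05, 4 loci were held more often after the first fast stage (0.602% of all nuclear loci) and 1 more often at the first fast stage (0.15%). Permuting the labels over both strains together gave 0 of the 236 loci after adjustment, and 4 and 2 before it. For this pooled permutation the count over all nuclear loci was not computed. Comparing the slow lists with the fast and switchback lists, 0 loci passed after adjustment (60 arrangements), and 1 was held more often at the slow stage (0.15%) and 0 less often at an unadjusted p under 0.05. Permuted over both strains together, 0 of the 236 loci passed after adjustment and 3 before it, all held more often at the slow stage. Here too the count over all nuclear loci was not computed. In the test within strains, all loci past the unadjusted threshold were variable loci. A locus missing from one strain, or held by all its lists, has fewer ways to reach a low p, so this is partly built in. The test takes libraries as independent, which serial samples of a chemostat are not. It also does not adjust for list length, which differed between the stages, so stage and length are mixed in these counts.

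The 4 loci held more often after the first fast stage shared 1 pattern: both WT slow lists, both WT switchback lists and the Δflo8 slow list, with no fast list of either strain and not the Δflo8 switchback list (exact permutation p = 0.0333 for each, adjusted p = 1). At chr2:1919217-1920498 the ranks were 126 and 123 in the WT slow lists, 79 and 72 in the WT switchback lists and 402 in the Δflo8 slow list. Its WT ranks thus lay in the upper part of the longer lists, slow replicate 2 and both switchback lists. In the shorter WT slow replicate 1 its relative rank was 62.1%. At chr1:1097665-1099391 they were 60 and 201, then 305 and 76, and 278. The locus at chr4:469170-470218, with 96 and 161, then 63 and 298, and 432, overlapped a region of the Δflo8 input control. At chr4:1251962-1252954 they were 140 and 157, then 298 and 180, and 170. Leaving out any 1 of the 6 WT lists left 0 loci in this direction, and so did leaving out the Δflo8 slow list. For these 4 loci that was fixed in advance. With a WT list left out, their pattern cannot give a p under 0.05. Without the Δflo8 slow list, no Δflo8 list held them, so they were no longer variable loci.

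The locus held more often at the first fast stage was chr4:1490462-1492125 (exact permutation p = 0.0333, adjusted p = 1). It ranked 212 of 219 and 72 of 199 in the WT fast lists and 419 of 463 in Δflo8 fast replicate 1, with a fold of 2.64, and no other list held it. Its ranks in the WT replicates were far apart, near the end of one list and in the middle of the other. A second locus was restricted to the first fast stage in the WT, at chr2:1959429-1960573, with ranks of 74 and 63. Both Δflo8 fast replicate 1 (rank 434) and the Δflo8 slow list (rank 455) held it, so its course in Δflo8 was not that of the WT. These 2 of 236 loci (0.847%) stand beside 0.301% of all nuclear loci. No other nuclear locus had this WT pattern, which meets the WT list count of the choice, so the higher share is largely built in.

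The locus held more often at the slow stage was chr4:338257-339334 (exact permutation p = 0.0167, adjusted p = 1). It was found in both WT slow lists, at rank 120 of 203 and 261 of 382, and in the Δflo8 slow list, at rank 310 of 509 with a fold of 2.91, and in none of the other 7 lists. It was the only variable locus open in the WT at the slow stage alone (0.424%, against 0.602% of all nuclear loci), and in it the strains had the same course. Leaving out either WT slow list or the Δflo8 slow list left 0 loci past the unadjusted threshold. For this locus that was fixed in advance. With 1 WT slow list left out, the 20 remaining arrangements cannot give a p under 0.05. Without the Δflo8 slow list, no Δflo8 list held the locus, so it was no longer a variable locus.

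Loci absent from the WT fast lists and held by all 4 later WT lists numbered 12 (5.08%, against 1.95% of all nuclear loci). They include the 4 above. The pattern meets the WT list count of the choice, so the higher share is largely built in: 13 of all 665 loci had it. Of the 12, both Δflo8 fast lists held 6, 1 Δflo8 fast list held 2 and neither held 4. The best ranked was chr2:114548-115544, with WT ranks of 130 and 159 in the slow lists and 134 and 137 in the switchback lists. Every Δflo8 list held it near the top, at ranks 19, 25, 7 and 33 with a fold of 4.22, 3.72, 4.45 and 3.43, the fast lists included. The next, chr3:146340-147543, ranked 82 and 59, then 124 and 47 in the WT, and 107, 77, 160 and 97 in Δflo8. At both, the absence of a peak at the first fast stage was a feature of the WT lists alone.

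A further 12 loci (5.08%, against 2.11% of all nuclear loci) were open in the WT at the switchback stage only. They ranked between 165 and 342 in the WT switchback lists, so none was among the leading peaks. Both Δflo8 fast lists held 8 of them. The switchback-only pattern also meets the WT list count of the choice. Of all 665 loci 14 had it, so the higher share is largely built in. At chr1:2178580-2179530 the WT ranks were 267 and 263, whereas the Δflo8 ranks were 32, 15 and 46 in the fast and slow lists, with a fold of 3.90, 3.63 and 3.69. At chr3:2101051-2101986 the WT ranks were 211 and 341, and all 4 Δflo8 lists held the locus at ranks 127, 108, 107 and 76. At chr1:756951-757819 the WT ranks were 318 and 295 and those of Δflo8 173, 114 and 125. None of the 3 was therefore confined to the return to fast growth once Δflo8 was considered.

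The reverse course, open in the WT at both fast stages and closed at the slow stage, was found at 2 loci (0.847%, against 0.301% of all nuclear loci). They were the only such nuclear loci. The course meets the WT list count of the choice, so the higher share is largely built in. At chr1:782752-784105 the WT ranks were 76 and 74 in the first fast lists and 327 and 60 in the switchback lists. The Δflo8 fast lists held it at ranks 130 and 268 and the Δflo8 slow list at rank 424, with a fold that was 3.55 and 2.74 in the fast lists and 2.65 in the slow list. At chr2:1058172-1059414 the WT ranks were 195 and 141, then 52 and 246, and those of Δflo8 were 438 and 355 in the fast lists and 509, the last place, in the slow list, with a fold of 2.53, 2.19 and 1.91. In both cases the Δflo8 slow list held a peak that the WT slow lists lacked, and its fold was the lowest of the 3. No variable locus was open at the first fast and slow stages and closed at the switchback stage in both WT replicates, a pattern of 0.15% of all nuclear loci.

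The 36 loci held by 5 of the 6 WT lists missed a fast list in 17 cases, a slow list in 10 and a switchback list in 9. In all 10 cases the missing slow list was replicate 1, one of the short lists. Of the loci that missed a fast list, 12 missed replicate 2, the shortest WT list, and 5 replicate 1. The loci that missed a switchback list were divided between replicate 1, with 5, and replicate 2, with 4, although both lists were long.

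These 3 groups differed in Δflo8. Of the 10 loci missing from a slow list, 9 were held by all 4 Δflo8 lists, with a median relative rank of 21.1% and a median fold of 3.41. Of the 17 missing from a fast list, 6 were held by all 4, and the medians were 32.2% and 3.21. Of the 9 missing from a switchback list, 2 were held by all 4 and 5 by the Δflo8 slow list alone, with medians of 90.1% and 2.54. The groups were formed from the WT lists after the loci had been chosen on both strains, and the difference was not tested.

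Among the loci missing a slow list, chr3:2121092-2122850 had the best mean relative rank of all 236 loci, with WT ranks of 61 and 53, 49, and 49 and 98, and Δflo8 ranks of 73, 74, 103 and 54. At chr3:2043314-2044492 the WT ranks were 73 and 58, 57, and 86 and 55, and the Δflo8 ranks were 67, 137, 157 and 62. Both were well ranked in each of the 9 lists that held them. At chr3:208288-209305 the WT ranks of 148 and 182, 117, and 84 and 102 stood against Δflo8 ranks of 2, 8, 4 and 10, with a fold of 4.80, 4.0, 4.70 and 3.82. These 3 also led the 17 loci held by 5 WT lists and all 4 Δflo8 lists.

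Among those missing a fast list, the best ranked was chr4:1459829-1461321, with WT ranks of 82, 58 and 116, and 183 and 101, and Δflo8 ranks of 97, 60, 123 and 38. The second, chr3:2046594-2047609, ranked 150, 182 and 144, and 119 and 127 in the WT but 7, 13, 13 and 6 in Δflo8, with a fold of 4.28, 3.72, 4.20 and 3.90. The third, chr3:409664-410664, ranked 189, 133 and 143, and 104 and 175 in the WT and 113, 68 and 153 in the Δflo8 fast and slow lists. Of the WT lists, only fast replicate 2 lacked these 3.

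Among those missing a switchback list, chr3:1993032-1994466 ranked between 75 and 87 in its 5 WT lists, but 438 in the Δflo8 slow list, the only one of that strain to hold it, with a fold of 2.59. The region at chr4:754145-755310 ranked between 61 and 148 in the WT and 490 in the Δflo8 slow list, with a fold of 2.34. At chr2:922872-924043, which overlapped a region of the Δflo8 input, the WT ranks lay between 93 and 162 and the Δflo8 slow rank was 116. These 3 also led the 9 loci held by 5 WT lists and 1 Δflo8 list, and in the first and second the strains differed in the opposite way from chr1:1364694-1365662.

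Only 4 loci were held by a single WT list and by all 4 Δflo8 lists. At chr3:891612-892533 the WT rank was 221 of 356, in switchback replicate 1, and the Δflo8 ranks were 24, 50, 8 and 84, with a fold of 4.19, 3.47, 4.47 and 3.05. At chr2:967010-967934 the WT rank was 361 of 382, in slow replicate 2, and the Δflo8 ranks were 86, 88, 50 and 73. At chr4:1080148-1081039 and chr4:1585238-1585980 the WT ranks were 284 and 294, both in switchback replicate 1, and the Δflo8 ranks ran from 72 to 244 and from 133 to 223. Each of the 4 was therefore called in the WT in 1 of the 3 longer lists only.

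Fold enrichment varied little between the Δflo8 lists at the 62 loci that all 4 held. The median was 3.76 (range 2.68 to 4.80) and 3.25 (2.30 to 4.52) in the fast lists, 3.63 (2.20 to 4.93) in the slow list and 3.14 (2.38 to 4.16) in the switchback list. The highest value at a locus was a median of 1.23 times the lowest, and 1.47 times at most. Fast replicate 1 had the highest value at 37 of the 62 loci and the slow list at 23, while fast replicate 2 and the switchback list each had it at 1. The slow list thus lay between the fast replicates in its median, and the switchback list lay below both, close to fast replicate 2. Loci that not all 4 lists held had lower medians in 3 of the lists, 3.10 and 2.81 in the fast lists and 2.88 in the slow list. In the switchback list, with 2 such loci, the median was higher, at 3.33.

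**Figure D5:**
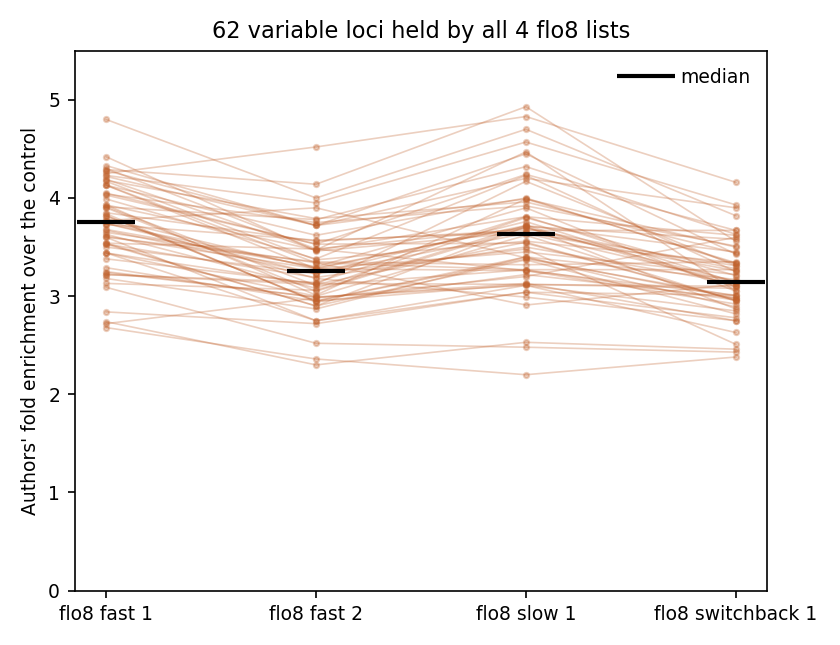
Authors' fold enrichment over the control (linear axis from 0) at the 62 variable loci held by all 4 Δflo8 lists. Each thin line joins 1 locus across the lists, and the bar is the median of a list (3.76, 3.25, 3.63 and 3.14 from left to right).

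Merging by overlap limits how far apart the sites called in different lists can lie, so the positions within a locus are given as a description. At the 178 loci with a summit in at least 2 Δflo8 lists, the outermost summits were a median of 24 bp apart, and at 172 (96.6%) they lay within 100 bp. The corresponding median was 35.5 bp at the interior loci in all 6 WT lists, where 28 of 116 loci held several peaks of 1 list, against 6 of 236 here. The Δflo8 summit fell inside the WT peak in 1756 of 1768 pairs of lists (99.3%) and in the middle 50% of it in 1726 (97.6%). Summit agreement was also within 100 bp at 92 of 92 loci in Δflo8 lists only. The width of the merged loci had a median of 942 bp (712 to 2030), set by the WT peaks: the mean Δflo8 peak was narrower than the mean WT peak at all 236, with a median of 24.9% of its width.

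Few of these loci overlapped background regions called in the input DNA. Of the 236, 9 shared at least 1 bp with an input region (3.81%, 95% Clopper-Pearson interval 1.76 to 7.12, against 5.11% of all nuclear loci), 4 of them with the WT and 6 with the Δflo8 input. The share was 7.76% (3.61 to 14.2) at the 116 interior loci in all 6 WT lists and 1.21% (0.147 to 4.31) at the 165 interior loci in Δflo8 lists only. The intervals cover counting error over loci only, and that of the variable loci overlaps both others. The best ranked of the 9 was chr1:2085915-2087370, with WT ranks between 47 and 125 and Δflo8 ranks of 172 and 109. The third by rank, chr2:958433-959380, was held by WT fast replicate 1, slow replicate 2 and switchback replicate 1 at ranks 215, 273 and 338, and by the Δflo8 lists at ranks 35, 103, 40 and 49.

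Variable loci were spread over all 4 chromosomes. Chromosome 1 held 62, chromosome 2 held 58, chromosome 3 held 59 and chromosome 4 held 57, or 23.0, 26.4, 28.7 and 35.2 per Mb outside the outer 100 kb. The loci in all 6 WT lists had 16.0, 10.0, 10.7 and 17.9 per Mb, so chromosome 1 was second in these and last in variable loci. Variable loci made up 30.8% of the interior loci of chromosome 1 and 43.2% of those of chromosome 4. Neighbouring variable loci were a median of 25.5 kb apart (150 bp to 182 kb), and 11 of 232 gaps were under 2 kb. Another locus lay within 1 kb of 32 of the 236 (13.6%).

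Close neighbours could differ in their pattern or share most of it. The closest pair, 150 bp apart, lay at chr3:628187-629099 and chr3:629250-630229. The first was held by 1 WT fast, 1 WT slow and both WT switchback lists and by the Δflo8 fast and slow lists, and the second by all later WT lists and 1 Δflo8 fast list. The loci of the third closest pair, chr4:355726-356569 and chr4:356943-357769, 373 bp apart, were each held by 1 WT switchback list and by Δflo8 fast and slow lists. Of the 4 longest runs of variable loci with no other locus between them, each of 5, the shortest spanned 38.5 kb at chr4:1458631-1497120. It contained a locus open in the WT at the switchback stage only (chr4:1458631-1459511), the locus missing only from WT fast replicate 2 described above (chr4:1459829-1461321), one held by WT slow replicate 2 and the Δflo8 slow list (chr4:1486740-1487665) and the locus of the first fast stage at chr4:1490462-1492125. The last, chr4:1496201-1497120, was held by WT slow replicate 2 and by the Δflo8 fast and slow lists. Each of the 5 had a different pattern over both strains, although chr4:1486740-1487665 and chr4:1496201-1497120 had the same course in the WT. These pairs and the run were chosen after their values were seen.

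The variable locus nearest a chromosome end was chr1:107237-108407, with its midpoint 107.8 kb from the end, held by 5 WT lists at ranks 109 to 155 and by the Δflo8 slow list at rank 489. The nearest locus that met the list counts but not the distance was chr3:96012-97781, at 96.9 kb, held by 5 WT lists at ranks 45 to 216 and by all 4 Δflo8 lists at ranks 102 to 232. In all, 12 loci met the list counts within 100 kb of an end.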

How the data were processed

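Paired-end reads were mapped by the authors with BWA (0.7.13 in the submitters' processing notes, which also list SAMtools 1.3) to the CBS7435 genome, and reads with a mapping quality under 20 were removed. The methods name MACS2 with input control, a p-value limit of 1e-10 and pooled replicates, whereas each deposited list holds 1 library. The deposited score of the WT lists, whose peak names have the style of MACS version 1, was read as 10 times −log10 p. The Δflo8 lists also give the authors' −log10 p-value and fold enrichment (a ratio), and the summit. The input lists are in the style of ZINBA.

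Coordinates are on the CBS7435 genome, counted from 1, and chromosome ends are the highest coordinates in any list. Peaks were ranked within a list by score or −log10 p, without the mitochondrial peak. Named loci were the 3 with the lowest mean relative rank per presence category, or all of up to 5. The loci and the rule were chosen with earlier results of these data known. Presence by stage was compared with an exact two-sided permutation test within strains, checked on simulated lists and repeated without strata, with Benjamini-Hochberg adjustment over all nuclear loci. Alternatives were other peak numbers, merging distances, end distances, coverage, input removal, permutation schemes, replicate rules and each library left out. Python 3.11.15 and SciPy 1.17.1 were used. The gene table at hand is of strain GS115 (0 of 5040 genes with a CBS7435 tag), so genes and sequences were not placed.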

Additional observations from a re-analysis of the deposited data

Results flagged for a closer look

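From the first to the second period of fast growth, the WT lists gained variable loci and the Δflo8 lists lost them. The WT mean changed by 106 loci, from 59 and 46 to 170 and 147, while that of Δflo8 changed by −107, from 184 and 158 to 64 in the single switchback list. The difference was not tested. The lengths of the lists moved the same way, and with lists of equal length the changes were far smaller. In the first 149 peaks the WT fast lists held 21 and 25 of the loci and the switchback lists 35 and 32, and the Δflo8 lists held 74 and 68 against 64. In the first 199 peaks the WT lists held 44 and 46 against 66 and 59.

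At 23 of the 236 loci (9.75%, against 3.46% of all nuclear loci) single loci took this course: neither WT fast list and both WT switchback lists held them, as did both Δflo8 fast lists, but not the Δflo8 switchback list. The higher share was built in, since the pattern meets the list counts of the choice and no other nuclear locus had it. All 23 were held by the Δflo8 slow list, 15 by WT slow replicate 2 and 3 by WT slow replicate 1. The fold enrichment in the Δflo8 fast lists lay between 2.15 and 3.94, and 6 of the 23 had a mean rank there within 149, the length of the Δflo8 switchback list. The opposite exchange was found at 0 loci, which was fixed in advance. It needs a locus of the Δflo8 switchback list outside both Δflo8 fast lists, and fast replicate 1 held all 64 of its variable loci.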

How the results depend on the processing

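The number of variable loci, 236, became 104 with the higher-scoring 50% of each list, 58 with 150 peaks from each and 0 when peaks had to cover at least 50% of the locus, since Δflo8 peaks are narrow. It lay between 224 and 242 with other end distances, input removal or merging within 200 bp, and between 189 and 236 with 1 library left out. The adjusted counts of both stage tests were 0 under every alternative run, which shows no stability, since no single locus could pass the adjustment in any of them. With the replicate block (27 arrangements) the count for the first fast stage was 0 after adjustment and 1 before it, against 5. Same-numbered WT lists did not deviate together (correlations −0.0348, −0.00291 and −0.0465). With lists of unequal length, this does not tell whether they shared a culture. Unadjusted counts lay between 0 and 6 and between 0 and 2 with 1 library left out. A library left out also leaves fewer arrangements, so falls in these counts are partly built in. The 12 loci open in the WT only after the first fast stage became 3 with the higher-scoring 50%, 1 with 150 peaks, 11 with input removal or merging within 200 bp and 81 with presence in either replicate. With 1 library left out they numbered 8 to 51, the latter without WT slow replicate 1, and 24 without WT fast replicate 1. The 2 loci specific to the first fast stage became 0, 1 and 5 under these settings and 1 to 5 with 1 library left out. The single slow-stage locus became 27 with presence in either replicate, and 0 (without the Δflo8 slow list) to 24 (without WT slow replicate 1). Leaving out a WT list removes a condition from each pattern, so rises are partly built in.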
